A study of Mus musculus with 7 samples.

Results

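Transcripts of oligodendrocytes, the glial cells that wrap axons in myelin, were examined in RNA drawn from ERα-ZsGreen neurons of the medial preoptic area (MPA). The 9 genes (Mbp, Mog, Mag, Mobp, Cnp, Olig1, Olig2, Sox10 and Mal) were chosen by symbol from the 24062 gene symbols counted, and all 9 were present and passed the filter on low counts. The mice carried the Esr1-ZsGreen transgene, a green fluorescent reporter of cells that express ERα (C57BL/6J background), and adult females were used according to the methods. All neurons were recorded in brain slices warmed by 5 °C, and the contents of 2 neurons with a similar response were drawn into the patch pipette and pooled as 1 sample. The groups comprised 4 temperature-responsive samples, whose neurons raised their firing rate with warming, and 3 non-responsive samples, whose neurons did not pass the study's cutoff.

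The total count per sample lay between 1914497 and 2814360 in the temperature-responsive group and between 3309361 and 5125280 in the other, whereas 19852 to 21177 and 17818 to 19820 genes were detected, so that neither measure overlapped between the groups and neither can be told apart from temperature responsiveness. Esr1 itself had only 10 to 27 counts per sample. The sex given in the methods was not matched by the Y-linked gene Ddx3y, which had at least 684 counts in each sample, or by Xist, which had at most 14. The labels do not say which samples share a mouse, so the p-values below measure the spread between these samples, which may be partly technical. In such pools, fewer cells of a type and less RNA per cell cannot be told apart.

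Myelin is a stack of oligodendrocyte membrane that insulates axons and speeds the conduction of action potentials. Its layers are held together by Mbp, the myelin basic protein that compacts the cytoplasmic faces of the membrane. Mag and Mog are surface proteins on the inner and outer layers of the sheath. The genes are switched on by a small set of transcription factors: Olig2 and Olig1 act in precursors and in differentiating cells, and Sox10 works with Myrf to turn on the myelin genes. Neurons do not use most of these genes, so that their transcripts serve as a measure of RNA from other cells in a neuron sample.

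Upstream sequences were found in the RefSeq promoter table (GRCm38.p6) for 6 of the 9 genes, namely Cnp, Mag, Mal, Mobp, Mog and Olig2, and not for Mbp, Olig1 or Sox10. The sequences of Mobp and Mal are shown as examples. They were picked with the changes of both genes known, as described below, so the contrast between them tests nothing. They end before the annotated start of transcription, run 5′ to 3′ on the strand of the gene, and lie at chr9:120149492-120149706 (plus strand, 215 bases) for Mobp and chr2:127656696-127656945 (minus strand, 250 bases) for Mal. Capitals mark each match to ACAAAG on either strand, letters that SOX factors are known to bind.
Mobp: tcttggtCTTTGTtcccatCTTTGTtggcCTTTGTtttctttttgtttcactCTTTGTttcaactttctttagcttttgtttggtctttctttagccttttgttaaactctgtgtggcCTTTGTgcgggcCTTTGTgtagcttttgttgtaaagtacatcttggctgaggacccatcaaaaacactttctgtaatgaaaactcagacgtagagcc
Mal: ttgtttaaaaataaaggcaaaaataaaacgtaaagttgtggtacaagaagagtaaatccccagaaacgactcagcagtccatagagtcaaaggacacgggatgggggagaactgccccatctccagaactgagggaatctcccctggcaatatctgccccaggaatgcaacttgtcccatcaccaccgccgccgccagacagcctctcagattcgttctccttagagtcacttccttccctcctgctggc
The Mobp sequence held 6 matches, all on the opposite strand, and the Mal sequence held no match. Of the 32851 promoter windows of the table, 16.5% held at least 1 match in their 250 upstream bases, and 0.00304% (the Mobp window alone) held as many as 6. The windows of Cnp and Mag also held a match and those of Mog and Olig2 did not. None of these genes passed the threshold in the comparison below. CAGCTG, an E-box that OLIG factors can bind, was in 13% of all windows and in no window of the 6 genes. A match describes the letters only. Factor binding was not measured, and a link between matches and fold changes was not tested.

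Oligodendrocyte transcripts were abundant in every sample. The 9 genes together made up 0.263% to 0.327% of all counts in temperature-responsive samples and 0.260% to 0.303% in non-responsive samples, and these ranges overlapped. Their summed level was 3466, 3079, 2743 and 2619 CPM (normalized, counts relative to the library total after TMM scaling) in temperature-responsive replicates 1 to 4 and 3021, 2525 and 2849 in non-responsive replicates 1 to 3. The highest sum was thus in temperature-responsive replicate 1 and the lowest in non-responsive replicate 2, with the other samples mixed between them. The difference of the group means was 0.084 on the log2 scale and smaller than the spread between samples of a group, and it was negative without Mbp (-0.084) or as a mean over the genes (-0.11). The sum corresponded to 63.4% to 75.2% of that of 10 pan-neuronal genes in temperature-responsive and to 65.6% to 72.1% in non-responsive samples. The amount of oligodendrocyte RNA relative to neuronal RNA thus did not separate the groups.

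**Figure D1:**
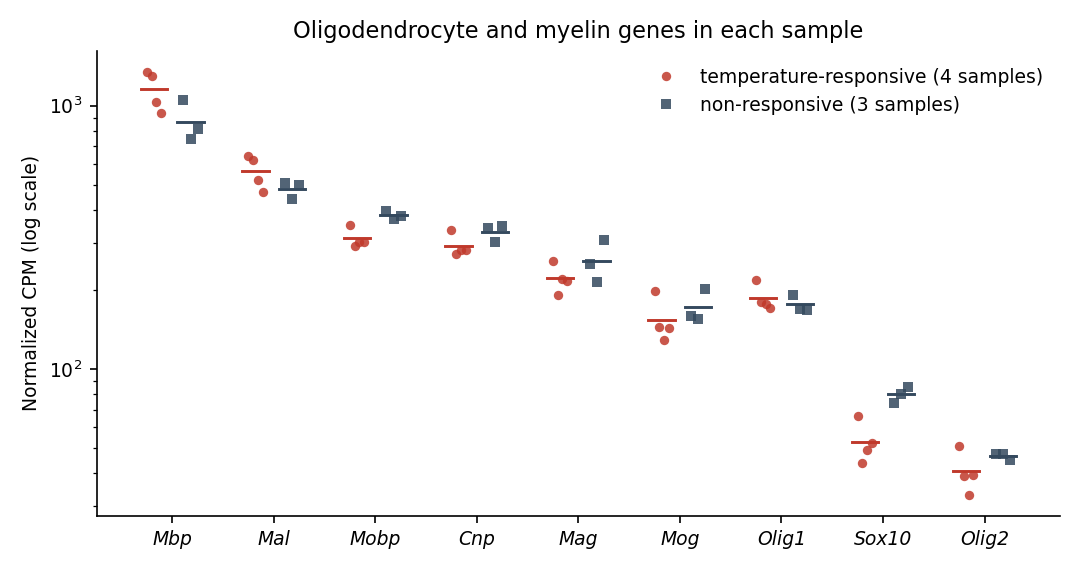
Normalized CPM of each of the 9 genes (log axis) in the 4 temperature-responsive samples (red circles) and the 3 non-responsive samples (dark squares), with horizontal bars at the group means. The groups are apart for Mobp and Sox10, both lower in temperature-responsive samples, and overlap for the other 7 genes.

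Levels were compared between genes per kilobase of annotated exon, over all 7 samples. Mal, a lipid-raft protein that carries membrane cargo to myelin, was highest at 191 ± 27.3 CPM per kb (SD, n = 7 samples), followed by Mbp at 122 ± 26.7. In non-responsive replicates 2 and 3, however, Mog (90.5 and 118 CPM per kb) lay above Mbp (87.8 and 96.0 CPM per kb). The exons annotated for Mbp span 8.47 kb over all its isoforms, which lowers its value on this scale. Mog (94.4 ± 16.4), the phosphodiesterase gene Cnp (85 ± 8.73) and Olig1 (84.0 ± 8.31) came next and overlapped with their neighbours. Mag (58.1 ± 9.61) and Mobp (50.1 ± 6.22), which encodes another cytoplasmic myelin protein, followed, and Sox10 (21.1 ± 5.35) and Olig2 (17.1 ± 2.44) were lowest. The steps of this order without overlap over the samples were those from Mal to Mbp, from Olig1 to Mag and from Mobp to Sox10. Among the 13748 tested genes with a known length, the median percentile was 99.3 for Mal, 98.0 for Mbp and 72.5 for Olig2.

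The 2 groups were then compared gene by gene to ask whether these transcripts differed with temperature responsiveness. Of the 9 genes, Mbp rose and Mobp and Sox10 fell in temperature-responsive samples, and the other 6 did not pass the threshold (edgeR's quasi-likelihood test, Benjamini-Hochberg adjusted p under 0.05 over 14407 genes). Across all genes tested, 15.1% were higher and 14.9% lower, 30% in all, so that 3 of 9 was close to the background. The median log2 fold change was -0.17 over the 9 genes and 0.0071 over all genes tested. The groups did not overlap in level for 2 of the 9 genes, against 35.4% of all genes tested.

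Among the structural genes, Mbp had 1344, 1296, 1029 and 941 normalized CPM in temperature-responsive replicates 1 to 4 and 1053, 744 and 813 in non-responsive replicates 1 to 3. Non-responsive replicate 1 lay above temperature-responsive replicates 3 and 4, so the groups overlapped. Mean levels were 1152 ± 198 CPM (SD, n = 4) and 870 ± 162 CPM (SD, n = 3), a log2 fold change of 0.41 (± 0.134 standard error, edgeR adjusted p = 0.0253). The call was lost without temperature-responsive replicate 1 or 2 or non-responsive replicate 2 or 3, with adjusted p from 0.0757 to 0.157 (edgeR).

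Mobp had 351, 293, 303 and 304 CPM in temperature-responsive and 396, 372 and 382 CPM in non-responsive samples. Every temperature-responsive sample was below every non-responsive sample, although replicate 1 came close. Mean levels were 313 ± 26.2 CPM (SD, n = 4) and 383 ± 12 CPM (SD, n = 3), and the log2 fold change of -0.29 (± 0.0948 standard error, edgeR adjusted p = 0.0214) passed the threshold. It no longer passed without temperature-responsive replicate 2, 3 or 4 or non-responsive replicate 2 or 3 (adjusted p from 0.0547 to 0.0826, edgeR).

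Mal followed the direction of Mbp, with 645, 621, 523 and 470 CPM in temperature-responsive and 508, 441 and 499 CPM in non-responsive samples. Its log2 fold change of 0.22 (± 0.110 standard error) missed the threshold (edgeR adjusted p = 0.126). Cnp, Mag and Mog had negative values that did not pass it either, with log2 fold changes of -0.17 for Cnp (adjusted p = 0.188), -0.22 for Mag (adjusted p = 0.159) and -0.17 for Mog (adjusted p = 0.334, all edgeR). In each of these 3 genes temperature-responsive replicate 1 was the highest of its group, with 335 CPM of Cnp, 258 CPM of Mag and 198 CPM of Mog. Small parts of the exons of Cnp (4.23%, shared with Dnajc7) and Mobp (1.15%, shared with Gm38642) belong to other genes as well, where reads may be left uncounted.

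Sox10 had the log2 fold change farthest from 0 of the 9 genes, although not with an offset for GC content (-0.34, edgeR adjusted p = 0.0707, against 0.44 for Mbp). It had 66.4, 43.9, 49.0 and 52.0 CPM in temperature-responsive and 74.2, 80.0 and 85.5 CPM in non-responsive samples (81 to 147 and 246 to 424 counts). All temperature-responsive samples were below all non-responsive samples. Mean levels were 52.8 ± 9.65 CPM (SD, n = 4) and 79.9 ± 5.63 CPM (SD, n = 3), a log2 fold change of -0.60 (± 0.135 standard error, edgeR adjusted p = 0.00210). Omitting any single sample left the difference between -0.73 and -0.52 on the log2 scale, past the threshold each time.

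The OLIG genes, which are neighbours on chromosome 16 of mm10 (Olig2 from 91225457 to 91228677, Olig1 from 91269772 to 91271933), did not pass the threshold. Olig1 had between 170 and 218 CPM in temperature-responsive and between 168 and 191 CPM in non-responsive samples, with a log2 fold change of 0.078 (± 0.101 standard error, edgeR adjusted p = 0.590) that became 0.32 (edgeR adjusted p = 0.0330) with an offset for GC content. Part of the exonic sequence of Olig1 (7.26%) is shared with Gm15966. Olig2 had 51.0, 39.0, 33.3 and 39.6 CPM in temperature-responsive and 47.4, 47.6 and 45.2 CPM in non-responsive samples, so that only temperature-responsive replicate 1 lay above the non-responsive range, while the other 3 lay below it. Its log2 fold change was -0.20 (± 0.151 standard error, edgeR adjusted p = 0.326). Sox10 relative to Olig2 was between 112.5% and 147% in temperature-responsive and between 157% and 189% in non-responsive samples, without overlap.

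Ratios between the genes were formed within each sample, where the library total cancels out. Relative to Mbp, all 8 other genes were on average lower in temperature-responsive samples, and the groups did not overlap for 6 of them, namely Mag, Mobp, Cnp, Olig1, Olig2 and Sox10. These ratios share the level of Mbp and are not independent of each other. Of the 14314 other genes with counts in every sample, the ratio to Mbp did not overlap between the groups for 24.9% and was lower in every temperature-responsive sample for 22.2%.

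Sox10 corresponded to 4.94%, 3.39%, 4.76% and 5.53% of Mbp in temperature-responsive replicates 1 to 4 and to 7.05%, 10.7% and 10.5% in non-responsive replicates 1 to 3. The mean log2 ratio differed by -1.02, the farthest from 0 of the 8 ratios to Mbp. No p is given for these ratios, since the genes were chosen with earlier results known. Mobp corresponded to 22.6% to 32.3% of Mbp in temperature-responsive and to 37.6% to 50.1% in non-responsive samples. Cnp ranged from 21% to 30.2% and from 32.5% to 42.8%, and Mag from 14.7% to 22.9% and from 23.7% to 38.0%. The ranges for Mag and Olig1 were nearly in contact, Olig1 reaching 18% in temperature-responsive and starting at 18.2% in non-responsive samples. Mal stayed nearest to Mbp, at 48.0% to 50.8% in temperature-responsive and 48.2% to 61.4% in non-responsive samples, with overlapping groups. With all samples drawn down to the smallest total, a check added for these ratios after seeing the data, the groups again did not overlap for 6 of the 8 ratios.

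**Figure D2:**
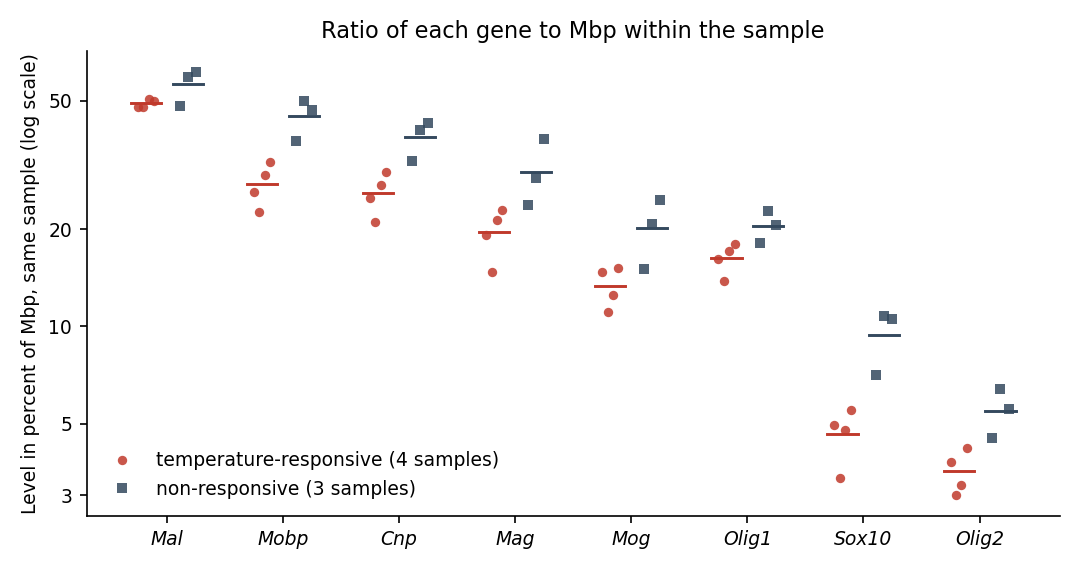
Level of each gene in percent of Mbp in the same sample (log axis), for the 4 temperature-responsive samples (red circles) and the 3 non-responsive samples (dark squares), with bars at the group means. All 8 group means are lower in temperature-responsive samples, and the groups are apart for 6 genes, overlapping for Mal and Mog.

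The ratios that did not overlap were not limited to those with Mbp. Of all 36 pairs of the 9 genes, a comparison added after seeing the data, 21 had ratios without overlap, against 30.1% of all pairs of genes tested, including 7 of the 8 pairs with Sox10 and 6 of the 8 pairs with Mal. The pairs share the levels of 9 genes and are not independent of each other, and the background includes sparser genes. Of the 21 pairs without Mbp and Sox10, 9 did not overlap. The transcription factors Olig1, Olig2 and Sox10 together amounted to between 9.32% and 11.1% of the 6 structural genes in temperature-responsive samples and between 11.6% and 13.3% in non-responsive samples, without overlap. The difference of -0.23 in the mean log2 ratio was -0.047 without Mbp and -0.038 with an offset for GC content.

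The share of Mbp among the 9 genes restates the ratios to Mbp and is not a separate measure of the libraries. The counts per kb of Mbp also depend on the library total. Mbp, which had between 282 and 339 counts per kb in temperature-responsive and between 412 and 476 in non-responsive samples, made up 36.0% to 42.1% of the counts of the 9 genes in the former and 28.5% to 34.9% in the latter. Library totals separated the same samples. Duplicate reads were removed by the authors without molecular identifiers, and the part of this step in the ratios was not tested.

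The GC content of the transcripts also moved with the fold changes. It was lowest for Mal (48.9%), Mog (50%) and Mbp (51.0%), and highest for Olig1 (61.1%) and Sox10 (61.8%). The 9 genes were joined with 32 genes of mature oligodendrocytes and 15 of precursors and newly formed oligodendrocytes (the precursor list). Over these 56 genes, Spearman's rho between GC content and log2 fold change was -0.613. The genes share the same 7 libraries and are not independent replicates. Over 13745 tested genes with a known GC content, rho was -0.342. With an offset for GC content, Mbp (log2 fold change 0.44, adjusted p = 0.0301) and Olig1 (0.32, adjusted p = 0.0330) were higher in temperature-responsive samples, against 11.6% of all genes tested. Sox10 (-0.34, adjusted p = 0.0707) and Mobp (-0.22, adjusted p = 0.0728, all edgeR) then missed the threshold, and 12.4% of all genes were lower. With a covariate for how many genes each sample detected, the log2 fold change was 0.30 for Mbp, -0.22 for Mobp and -0.30 for Sox10, and no adjusted p of the 9 genes was below 0.475 (edgeR). No unadjusted p of the 9 was under 0.05 in this fit, in which a single gene of 14407 (0.00694%) was called.

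**Figure D3:**
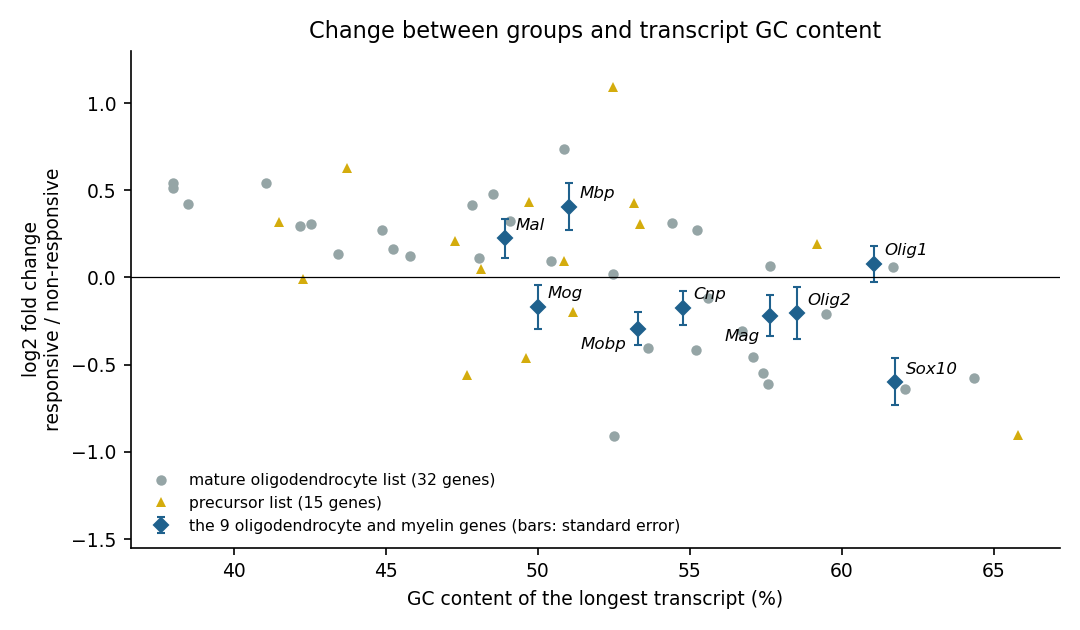
Log2 fold change between temperature-responsive and non-responsive samples against the GC content of the longest transcript (%), for the 9 genes (blue diamonds, bars are standard errors), 32 mature oligodendrocyte genes (grey circles) and 15 precursor genes (yellow triangles). Values tend to be lower at higher GC content (Spearman's rho -0.613 over the 56 genes), with Sox10 at 61.8% and -0.60.

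**Figure D4:**
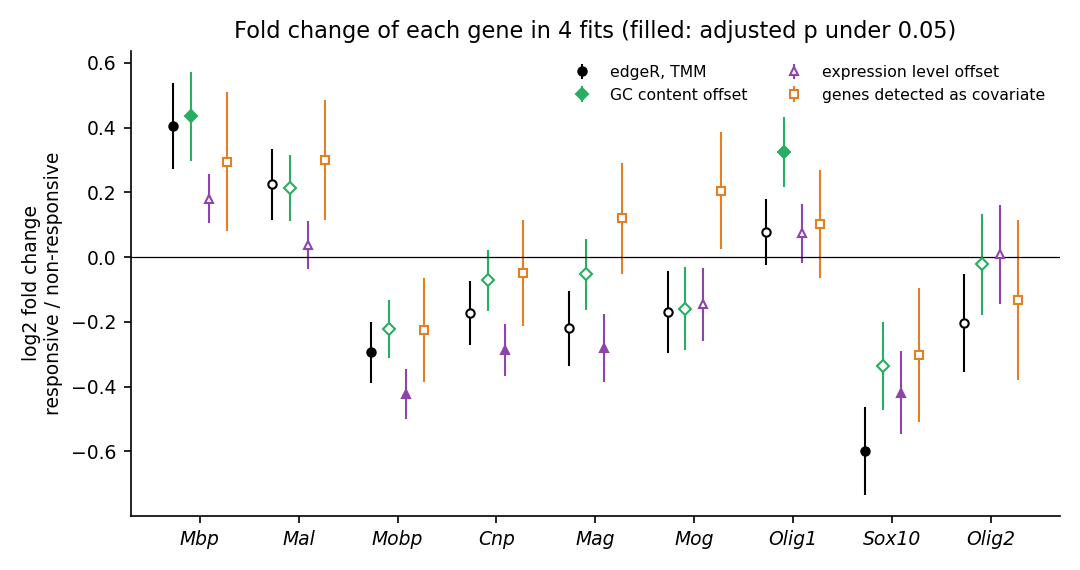
Log2 fold change of each of the 9 genes with its standard error in 4 fits, by edgeR with TMM normalization, with a GC content offset, with an expression level offset and with a covariate for genes detected. Filled symbols passed an adjusted p of 0.05. Mbp stays above 0 and Mobp and Sox10 below 0 in all 4 fits, while Mog and Mag change sign with the covariate, and Olig2 with the expression level offset.

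Other oligodendrocyte genes were taken from lists that hold none of the 9 genes. Of 32 genes of mature oligodendrocytes, 10 rose and 8 fell in temperature-responsive samples and 14 did not pass the threshold, against 15.1% higher and 14.9% lower over all genes tested. The median log2 fold change was 0.12 for the list and 0.0071 over all genes tested. Genes that rose included Cldn11, the tight junction protein of myelin (227 ± 35.3 against 136 ± 27.9 CPM, log2 fold change 0.74, adjusted p = 0.000464), Ugt8a, which makes the main myelin galactolipid (0.54, adjusted p = 0.00348), and Ermn, a cytoskeletal protein of mature cells (0.52, adjusted p = 0.00206, all edgeR). Car2, a carbonic anhydrase with 513 ± 86.9 against 410 ± 35.8 CPM, was among the most abundant of the list and also rose (0.32, adjusted p = 0.0382, edgeR). Genes that fell included the protease gene Klk6 (-0.91, adjusted p = 0.00458), the transcription factor Myrf (-0.61, adjusted p = 0.00863) and the homeobox gene Nkx6-2 (-0.57, adjusted p = 0.0184, all edgeR). Over the mature and precursor lists and the 9 genes, the 13 genes that rose had a median GC content of 44.9% (38.0% to 54.4%) and the 12 that fell one of 57.2% (49.6% to 65.8%). With the GC content offset, 6 genes of the mature list rose and 2 fell, and Ermn (adjusted p = 0.0729), Ugt8a (adjusted p = 0.0737) and Nkx6-2 (-0.24, adjusted p = 0.375, edgeR) no longer passed the threshold. Without non-responsive replicate 3, the value of Myrf was -0.39 (adjusted p = 0.108, edgeR). The calls of Car2 and Nkx6-2 were each lost without any 1 of 4 samples (adjusted p up to 0.185 and 0.119, edgeR), which included non-responsive replicates 2 and 3 and temperature-responsive replicate 2 for both, with temperature-responsive replicate 1 for Car2 and 4 for Nkx6-2.

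Of the 15 genes of the precursor list, which also holds genes of newly formed oligodendrocytes, 2 rose, 2 fell and 11 did not pass the threshold. The median log2 fold change was 0.19, and the share called was close to the 30% over all genes tested. The proteoglycan gene Vcan (0.63, adjusted p = 0.0106) and Lhfpl3 (0.32, adjusted p = 0.0330) rose, while C1ql1, a secreted C1q-like protein (-0.90, adjusted p = 0.000486), and the calcium channel gene Itpr2 (-0.46, adjusted p = 0.0198, all edgeR) fell. Lhfpl3 did not pass with the GC content offset (0.13, adjusted p = 0.371, edgeR), and without temperature-responsive replicate 1 its value was 0.20 (adjusted p = 0.143, edgeR). Its call was also lost without temperature-responsive replicate 2 or non-responsive replicate 1 or 2, that of Itpr2 without replicate 2 of either group, and that of Vcan without non-responsive replicate 3. The most abundant of this list were Bcas1, with 331 ± 77.4 CPM (SD, n = 4) and 309 ± 24.6 CPM (SD, n = 3), Tcf7l2 and Lhfpl3. The summed level of the list ranged from 831 to 1011 CPM in temperature-responsive and from 798 to 890 CPM in non-responsive samples and overlapped, as did that of the mature list, from 6568 to 9009 CPM and from 5937 to 6601 CPM.

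Among 16 further transcription factors of the lineage, 3 rose, 4 fell and 9 did not pass the threshold (median log2 fold change -0.0116), against 15.1% higher and 14.9% lower over all genes tested. Beside Myrf and Nkx6-2, which are also in the mature list, Hes5, a target of Notch (-0.90, adjusted p = 0.00416), and Zfp536 (-0.73, adjusted p = 0.00464) fell. St18 (0.57, adjusted p = 0.00300) and Id2, an inhibitor of basic helix-loop-helix factors and the most abundant of the list (0.49, adjusted p = 0.00205, all edgeR), rose. Sox17, counted among the 3 that rose, had the largest log2 fold change (2.49), although each sample held only 2 to 47 counts of it. It passed the filter on low counts mainly through the temperature-responsive samples (15 to 47 counts, against 2 to 18), so no p is given for it. Sox17 is also a gene of endothelial cells, and of 10 endothelial genes 6 rose, with a summed level of 144 to 455 CPM in temperature-responsive and 38.7 to 96.0 CPM in non-responsive samples. Their part in the Sox17 result was not tested. Tcf7l2 and Sox9, the next most abundant, had log2 fold changes of 0.21 and 0.17 that did not pass the threshold. The summed level of this list was 1137 to 1240 CPM in temperature-responsive and 1004 to 1112 CPM in non-responsive samples, without overlap. The sum does not describe the list gene by gene, since it averaged 1182 against 1057 CPM and Id2 alone had 484 against 346 CPM. On the same measure, Olig1, Olig2 and Sox10 summed to 259 to 335 CPM in temperature-responsive and 297 to 313 CPM in non-responsive samples, with overlap.

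Myelin is rich in cholesterol and galactolipids. Of 16 enzymes that make them, 15 were tested, of which 3 rose and 4 fell, with a median log2 fold change of -0.15 and a background of 15.1% higher and 14.9% lower. Those that rose included the cholesterol enzyme Hmgcs1 (0.39, adjusted p = 0.00793) and the galactolipid enzyme Ugt8a. The cholesterol enzymes Fdps (-0.61, adjusted p = 0.00563), Fdft1 (-0.63, adjusted p = 0.000827) and Lss (-0.79, adjusted p = 0.0257) and the fatty acid hydroxylase Fa2h (-0.41, adjusted p = 0.0223, all edgeR) fell. Parts of the exons of Fdps (26.7%), Fdft1 (18.3%) and Hmgcs1 (12.1%) belong to other genes as well, where reads may be left uncounted. Cyp51, also a cholesterol enzyme, had a log2 fold change of 0.19 (edgeR adjusted p = 0.158). With the GC content offset, Fdps, Fdft1 and Lss still passed the threshold (adjusted p from 0.00170 to 0.0283) and Hmgcs1 (adjusted p = 0.0601) and Ugt8a (adjusted p = 0.0737, edgeR) did not. The call of Lss was lost without temperature-responsive replicate 1 or 4 or non-responsive replicate 3, where its value was -0.50 (adjusted p = 0.227, edgeR) without the last. That of Fa2h was lost with the offset (adjusted p = 0.0985, edgeR) and without temperature-responsive replicate 2, 3 or 4 or non-responsive replicate 3, and that of Hmgcs1 without non-responsive replicate 2 or 3. Neurons and astrocytes also make cholesterol, and the counts do not separate the cell types.

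Mag, Omg and the reticulon Rtn4 (Nogo) act on neurons through a receptor of the Nogo receptor family with Lingo1 as a partner. Of the 10 genes of this list, 8 were tested and 4 fell in temperature-responsive samples, against 14.9% of all genes tested, with a median log2 fold change of -0.39. The receptor genes Rtn4rl1 (53.9 ± 10 against 85.5 ± 5.75 CPM, log2 fold change -0.65, adjusted p = 0.00107) and Rtn4r (19.8 ± 3.99 against 30.7 ± 2.50 CPM, -0.61, adjusted p = 0.0154) fell together with Lingo1 (104 ± 26.3 against 162 ± 17.2 CPM, -0.63, adjusted p = 0.00325, all edgeR). In each of these 3 genes every temperature-responsive sample was below every non-responsive sample. The third receptor gene, Rtn4rl2, is counted among the 4 but was sparse. It had 2 to 4 counts per temperature-responsive sample and 17 to 36 per non-responsive sample, and passed the filter on low counts only through the latter. Its fall is thus not read as a result. The ligand genes had log2 fold changes of 0.070 for Omg (adjusted p = 0.629) and 0.25 for Rtn4 (adjusted p = 0.0664), and Tnfrsf19 (0.17, adjusted p = 0.384) and Lrp1 (-0.17, adjusted p = 0.217, all edgeR) did not pass the threshold either. With the GC content offset, Rtn4rl1 and Lingo1 still passed it and Rtn4r did not (adjusted p = 0.176, edgeR). Rtn4r also missed it without replicate 2 of either group.

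Within the groups, the levels of the 9 genes varied together, with temperature-responsive replicate 1 standing apart from the other samples. After each gene was centred within its group on the log2 scale, Pearson's r had a median of 0.69 over the 36 pairs of genes (from 0.047 to 0.92, 7 samples, which also differ in depth). This median was not formed for pairs of other genes or without temperature-responsive replicate 1. The mean of the 9 genes was 0.26 above the group mean in temperature-responsive replicate 1 and between 0.11 below and 0.060 above it in the other samples. Over the 32 mature oligodendrocyte genes, r with this mean had a median of 0.70, and 20 of the 32 lay above 0.64, the value exceeded by 10% of the 14398 other genes tested, whose median was -0.0088. Over the 15 precursor genes the median was -0.062, and 2 lay above 0.64. The likeness of the mature list rested largely on temperature-responsive replicate 1. Without this sample its median was 0.36, and 6 of the 32 lay above the value exceeded by 10% of the other genes. The 5 genes most like the mean of the 9 were Gjb6 (r = 0.996), a connexin of astrocytes, the splicing factor Srsf10 (0.986), Tmem88b of the mature list (0.986), the aminotransferase Got1 (0.985) and the calpain Capn2 (0.982). These are the highest of 14398 values over only 7 samples, which ranged from -0.993 to 0.996, so they are high by selection.

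**Figure D5:**
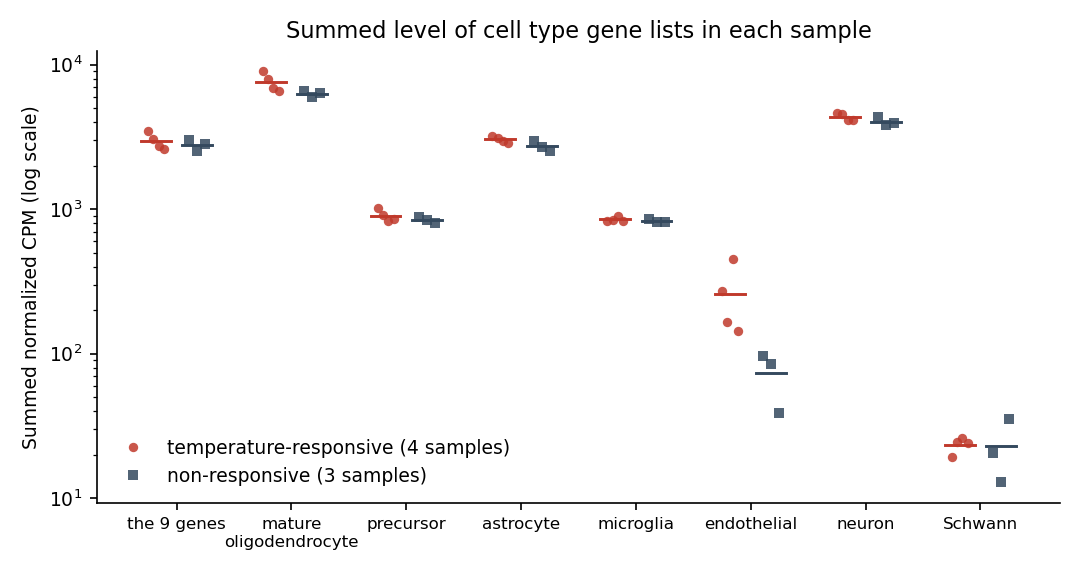
Summed normalized CPM (log axis) of the 9 genes and of gene lists for mature oligodendrocytes, precursors, astrocytes, microglia, endothelial cells, neurons and Schwann cells, for the 4 temperature-responsive samples (red circles) and the 3 non-responsive samples (dark squares), with bars at the group means. The groups are apart for the endothelial list (144 to 455 against 38.7 to 96.0 CPM) and overlap for the other lists.

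Transcripts of other cell types were present beside those of oligodendrocytes. The summed level of 10 astrocyte genes was 2895 to 3197 CPM in temperature-responsive and 2549 to 2974 CPM in non-responsive samples, and that of 10 microglia genes was 828 to 899 CPM and 818 to 850 CPM. The 9 oligodendrocyte and myelin genes amounted to 90.4% to 108% of the astrocyte sum in temperature-responsive and to 93.0% to 112% in non-responsive samples, with overlap. Schwann cells, which make the myelin of peripheral nerves, were checked with 5 genes whose sum was between 12.9 and 35.5 CPM in every sample.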

How the data were processed

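Patch-seq libraries (SMART-seq V4, Nextera XT) of 7 samples of 2 pooled neurons were analysed. According to the study's methods and the submitters' processing notes, the authors aligned reads to mm10 with STAR 2.6.0, removed PCR duplicates with RmDup, and deposited unnormalized htseq-count (HTSeq 0.9.1) counts per gene symbol. Annotation, strandedness and the rule for overlapping genes are not given in the sources used here. As no molecular identifiers were used, duplicate removal can discard separate molecules of abundant genes.

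The 14407 of 24062 genes that reached 10 counts in 3 or more samples were tested in R 4.3.3 with edgeR 4.0.16 (robust quasi-likelihood test, TMM, two-sided, Benjamini-Hochberg, threshold 0.05). The standard error is the log2 fold change divided by the square root of F. DESeq2 1.42.0, other normalizations and filters, drawing down, covariates, offsets (mgcv 1.9.3), the replicate block and omission of samples were alternatives. Lengths, GC content and coordinates came from GENCODE M21 (same build, 94.6% of symbols found), upstream sequences from RefSeq. Totals were 1914497 to 5125280 counts, and a floor of 3 counts was 0.585 to 1.57 CPM (counting error only). Pairs of samples of a group differed beyond counting noise (chi-square at least 2.00 times its degrees of freedom).

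Named were the 9 genes, the tested receptor list, up to 4 genes per list and direction by size, the 3 most abundant per list, and the 5 genes most like the 9; some genes that this rule names are not reported here. The genes and lists were chosen with earlier results of these data known.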

Additional observations from a re-analysis of the deposited data

How the results depend on the processing

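Over the 9 genes and 20 alternatives each, 146 of 180 log2 fold changes kept both their direction and their side of the threshold, 18 lost it, 10 gained it and 6 changed sign; where no reason is given, the cause was not tested. The offsets for expression level and exonic length were added after seeing the data. In all, 4327 genes passed the threshold, but 1 with a genes-detected covariate, which differs between the groups, and 2813 with the block plus GC content offset. Leaving out each sample gave 2620 to 4583, the lowest without non-responsive replicate 3. The share of higher calls moved most with the upper quartile normalization (2634 higher, 1608 lower) and the expression level offset (2519 and 1341), in place of 2176 and 2151. The 22797 genes with 1 count or more had a median log2 fold change of 0.17.

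Of the 9 genes, 1 was higher and 2 were lower. The number higher was 2 with the GC content offset, the replicate block, and the block plus GC content offset, and 0 with a genes-detected covariate (0 at an unadjusted p under 0.05, edgeR) and with the expression level offset (1 unadjusted); DESeq2 called 1 higher and 2 lower. The number lower was 1 with upper quartile normalization, 4 with no filter but 1 count and with the expression level offset, and 0 with a genes-detected covariate (0 unadjusted), the GC content offset (2 unadjusted) and the block plus GC content offset (1 unadjusted). Leaving out each sample gave 0 to 2 higher and 1 to 3 lower. Among the 20 alternatives Sox10 passed the threshold in 17, Mbp in 14 and Mobp in 11.

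Signs changed for Mog (0.21) and Mag (0.12) with a genes-detected covariate, for Olig1 with no filter but 1 count (-0.011) and without temperature-responsive replicate 1 (-0.011), and for Olig2 with the block plus GC content offset (0.0019) and the expression level offset (0.0094). The log2 ratio of the transcription factors to the structural genes, -0.23, was -0.047 without Mbp, -0.038 with the GC content offset and -0.27 to -0.17 with a sample left out. The difference in the log2 summed level of the 9 genes, 0.084, was -0.11 as a mean over genes, -0.084 without Mbp and 0.0083 to 0.14 with a sample left out.

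In the fit with a replicate block 4124 genes were called, and Mal (0.30, adjusted p = 0.0276, edgeR) was called beside Mbp, Mobp and Sox10. Deviations of same-numbered samples from their group means correlated at -0.13, -0.062 and 0.032, and no sample correlated best with its own number. These values gave no sign of pairing by number. With so few samples, however, they cannot decide whether same-numbered samples share a mouse, which the labels do not say.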
